A study of Arabidopsis thaliana with 12 samples.

Results

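MCCA, MCCB and IVD are 3 genes of leucine breakdown in Arabidopsis thaliana, and their transcripts were followed in seedlings with and without glucose and with and without silencing of the TOR kinase. They were chosen by gene name with earlier results of these data known, so their standing among all probe sets is a description. Each has 1 probe set annotated to that single gene, so the 3 probe sets stand among 22746 tested and 13513 that carry 1 gene name in the sources used here. MCCA is locus AT1G03090 (probe set 263118_at), MCCB is AT4G34030 (253279_at) and IVD is AT3G45300 (252570_at).

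Leucine is broken down in mitochondria. After transamination and oxidative decarboxylation it yields isovaleryl-CoA, which isovaleryl-CoA dehydrogenase, the product of IVD, oxidises to methylcrotonyl-CoA while passing electrons to the electron transfer flavoprotein. Methylcrotonyl-CoA carboxylase then adds a carboxyl group. It is a biotin enzyme built of an alpha subunit that carries the biotin, encoded by MCCA, and a beta subunit that performs the carboxyl transfer, encoded by MCCB. In plants short of sugar, for instance in long darkness, amino acids including leucine are used as respiratory fuel, and TOR is a protein kinase that promotes growth when sugar and other nutrients are plentiful.

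Whole seedlings, 3 days old and of Col-0 background, were grown in liquid medium under low light, which the design describes as using up their seed nutrients. The 4 groups of 3 arrays are wild type without glucose (WT_none), wild type given 15 mM glucose for 2 h (WT_glucose), seedlings carrying an estradiol-inducible RNAi construct against tor without glucose (tor_none) and the same line with 15 mM glucose for 2 h (tor_glucose). The labels also call this line tor mutant. The sources used here do not say if WT was given estradiol too, so between genotypes the inducer and the silencing cannot be told apart, and TOR itself was not analysed here. The labels call the replicates biological but do not say if they were separate cultures. Each p rests on the spread over these arrays, and what that spread covers is not known beyond the label. Levels are log2 values from RMA, an array summary that corrects background, equalises arrays and combines the probes of a probe set.

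The median level per array lay between 6.53 and 6.86, and 29.0% to 32.2% of probe sets lay below 5, taken here as dim. All 36 values of MCCA, MCCB and IVD were above it. For the labelled tissue, 2 of 8 shoot markers and 2 of 8 root markers carried a name here, and none of 5 seed reserve markers. The light-harvesting genes LHCB4.1 and LHCB4.2 were bright in every group (means of 12.49 to 13.80). LHCB4.2 was higher in tor without glucose, at 12.55 in WT_none and 13.25 in tor_none (limma adjusted p = 0.0356). With glucose it was at 12.49 in WT_glucose and 13.285 in tor_glucose (limma adjusted p = 0.0143). LHCB4.1 passed in neither comparison (limma adjusted p = 0.125 and 0.586). The root hair expansin EXPA7 was at 6.84 in WT_none and 7.03 in WT_glucose, but dim in tor_none (4.82) and tor_glucose (4.83). The other root marker measured, EXPA18, did not follow it without glucose, at 5.14 in WT_none and 5.47 in tor_none (limma adjusted p = 0.368). With glucose it too was lower in tor, at 5.98 in WT_glucose and 5.28 in tor_glucose (limma adjusted p = 0.0458).

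In WT seedlings all 3 genes fell steeply within 2 h of glucose. MCCA fell 41.2-fold, IVD 12.3-fold and MCCB 10.4-fold. In tor seedlings none passed the threshold for the same treatment, with values 1.82-fold lower for MCCA and MCCB and 1.71-fold lower for IVD, and with glucose all 3 stayed higher in tor than in WT. The order of the group means was the same for each gene: WT_none highest, then tor_none, then tor_glucose, and WT_glucose lowest. Of the neighbours in that order, WT_none and tor_none did not pass the threshold for any gene, nor did tor_none and tor_glucose. The comparison of tor_glucose and WT_glucose passed it for all 3. A difference that did not pass is not shown to be absent.

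MCCA, the biotin-carrying subunit, lay at 11.54, 12.00 and 12.54 on the 3 WT_none arrays and at 8.01, 6.02 and 5.96 on the WT_glucose arrays. These groups are far apart, and the WT_glucose array numbered 1 is the highest of its group. In tor_none the levels were 9.21, 11.54 and 11.92, and in tor_glucose 9.07, 10.01 and 10.99. The tor groups overlap, since the tor_none array numbered 1 lies below 2 of the 3 arrays given glucose.

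MCCB, the carboxyl transfer subunit, lay at 11.26, 12.07 and 12.71 in WT_none and at 9.04, 8.58 and 8.28 in WT_glucose. Here too the WT groups do not overlap, and the WT_glucose values stay well above dim. In tor_none MCCB was at 10.06, 11.47 and 11.84, and in tor_glucose at 9.87, 10.08 and 10.82. The tor groups again overlap, since the tor_none array numbered 1 lies below 2 of the tor_glucose arrays.

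IVD, the dehydrogenase one step upstream, lay at 10.29, 11.26 and 11.55 in WT_none and at 7.80, 7.10 and 7.33 in WT_glucose, with no overlap. In tor_none it was at 8.90, 11.28 and 11.48, and in tor_glucose at 8.66, 10.17 and 10.52. For all 3 genes the array numbered 1 is the lowest and the array numbered 3 the highest of WT_none, of tor_none and of tor_glucose, while in WT_glucose the array numbered 1 is the highest.

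**Figure D1:**
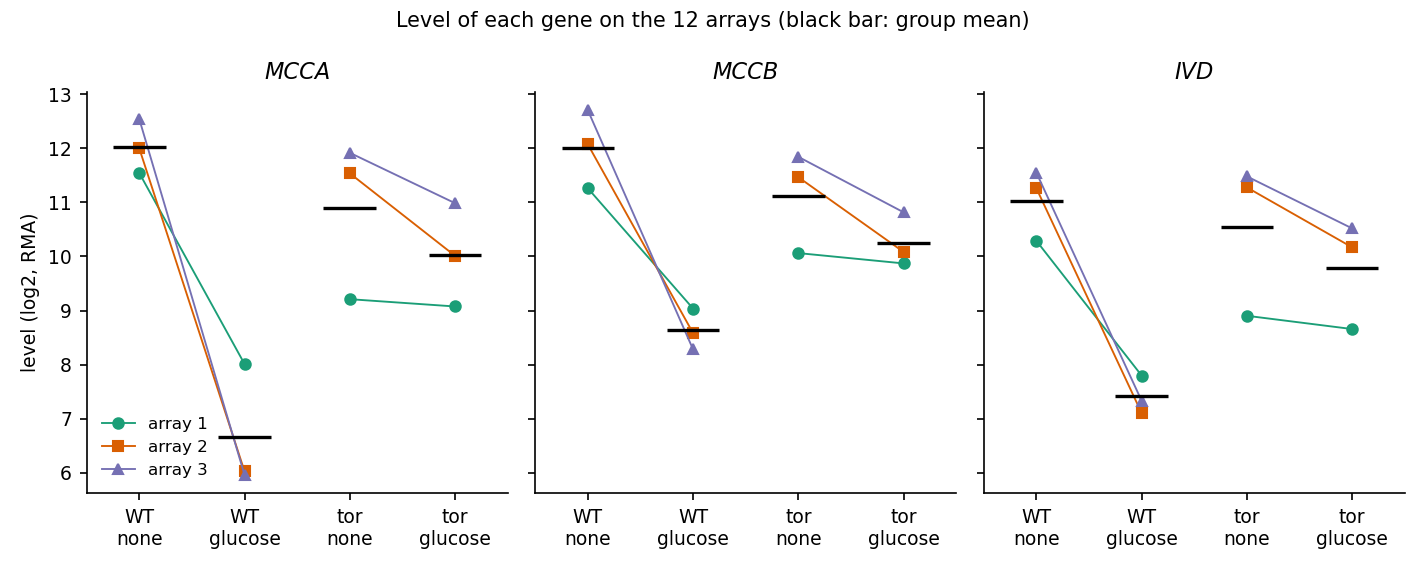
Level (log2, RMA) of MCCA, MCCB and IVD on the 12 arrays, with lines joining arrays of the same number within a genotype and black bars at group means. In WT every array falls with glucose and the groups do not overlap. In tor the lines are shallow and the array numbered 1 starts low, at 9.21 for MCCA, 10.06 for MCCB and 8.90 for IVD.

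The first comparison asks which transcripts respond to glucose in WT. All 12 arrays entered 1 linear model per probe set (limma), and a probe set was called at a Benjamini-Hochberg adjusted p under 0.05 over all 22746. MCCA fell from a mean of 12.03 ± 0.50 (SD, n = 3) to 6.66 ± 1.17, a log2 change of -5.36 ± 0.77 (SE, limma adjusted p = 0.000744). MCCB fell from 12.01 ± 0.72 to 8.63 ± 0.38, a change of -3.38 ± 0.48 (limma adjusted p = 0.000709). IVD fell from 11.03 ± 0.66 to 7.41 ± 0.35, a change of -3.62 ± 0.68 (limma adjusted p = 0.0031). All 3 were called lower, against 10.5% of all probe sets (13.5% were called higher). With the arrays centred on their medians those shares were 13.3% and 11.1%. Non-overlap with lower values, which all 3 genes show, was met by 18.1% of probe sets. In size the changes were extreme: counted from the lowest of 22746 log2 changes, MCCA ranked 8, IVD 42 and MCCB 60. Each kept its call in all 21 alternative fits, with changes of -6.28 to -5.01 for MCCA, -3.96 to -3.04 for MCCB and -4.19 to -3.37 for IVD.

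The size of the drop varied between same-number pairs. For MCCA the differences between the glucose and the untreated array were -3.53, -5.97 and -6.58 for numbers 1, 2 and 3. For MCCB they were -2.23, -3.49 and -4.43, and for IVD -2.49, -4.16 and -4.22. Every pair of every gene was lower with glucose, which held for 28.5% of probe sets. Number 1 gave the smallest drop for every gene. With numbers 2 and 3 alone, a choice made after seeing the data, the changes were -6.28 for MCCA, -3.96 for MCCB and -4.19 for IVD. In the authors' deposited table the dChip log2 fold changes, computed there from perfect-match minus mismatch probes, were -6.7 for MCCA, -3.3 for MCCB and -3.6 for IVD.

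The same question in tor seedlings gave small values of one sign. MCCA changed by -0.86 ± 0.77 (SE, 95% interval -2.56 to 0.83), MCCB by -0.87 ± 0.48 (-1.93 to 0.19) and IVD by -0.77 ± 0.68 (-2.26 to 0.72), each at a limma adjusted p of 1.00. None was called, and the share called over all probe sets was 0% in either direction, with 313 at an unadjusted p under 0.05. The lower ends of the intervals lie at -2.56 to -1.93, so a loss of the response in tor is not shown. In the authors' deposited table the dChip changes in tor were -0.9 for MCCA, -0.6 for MCCB and -0.8 for IVD, with unadjusted p-values of 0.039, 0.050 and 0.0509 from a test that the table does not name. Its RMA p-values, in the same order, were 0.0929, 0.020 and 0.132. By pair, MCCA changed by -0.13, -1.53 and -0.93, MCCB by -0.19, -1.38 and -1.03, and IVD by -0.25, -1.11 and -0.96. All 9 differences were below 0, which was true of all 3 pairs for 14.3% of probe sets in tor. Number 1 again gave the smallest drop. Among the 22746 tor changes MCCB ranked 70 from the lowest, MCCA 71 and IVD 85.

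The pairing narrows the errors in tor without bringing a call. When the 6 tor arrays were fitted by themselves, blocked on their number (chosen after seeing the data), the adjusted p was 0.215 for MCCA, 0.164 for MCCB and 0.135 for IVD (limma, 20 probe sets called). Without 1 array the tor change ran from -1.70 to -0.35 for MCCA, from -1.40 to -0.51 for MCCB and from -1.60 to -0.21 for IVD, none called. The largest drops came without the tor_none array numbered 1, and the smallest without the tor_none array numbered 3 for MCCA and MCCB and without the tor_glucose array numbered 1 for IVD. Relative to WT, the tor change of the means was 16.1% for MCCA, 25.6% for MCCB and 21.3% for IVD. For the 2377 probe sets that were called lower in WT the median change was -0.89 in WT and -0.12 in tor, the latter 13.6% of the former. Of these probe sets 2.48% had a tor change below that of MCCA, 2.44% below that of MCCB and 2.94% below that of IVD. These last shares are not scaled to the WT change, and the 3 genes fell in WT by far more than that median.

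**Figure D2:**
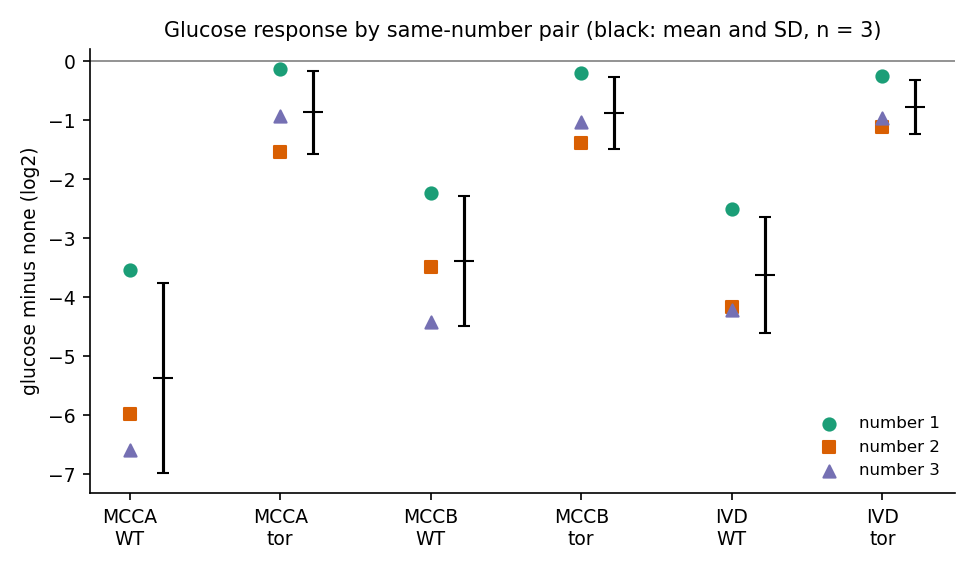
Difference between the glucose and the untreated array of the same number (log2) for each gene and genotype, with the mean and SD over 3 pairs in black. WT differences lie between -6.58 and -2.23 and tor differences between -1.53 and -0.13, and number 1 is the smallest drop in all 6 columns.

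Whether the response itself differs between genotypes was tested as tor response minus WT response, which uses the same arrays as both single responses. MCCA differed by 4.50 ± 1.09 (SE, limma adjusted p = 0.0395), a called difference. MCCB differed by 2.51 ± 0.68 (95% interval 1.01 to 4.01, limma adjusted p = 0.0588) and IVD by 2.85 ± 0.95 (0.74 to 4.96, limma adjusted p = 0.117), neither called. A higher response in tor was called for 1.93% of probe sets and a lower one for 3.44%, or 2.6% and 2.7% with the arrays centred on their medians. By pair the difference was 3.40, 4.45 and 5.65 for MCCA, 2.04, 2.11 and 3.40 for MCCB, and 2.25, 3.05 and 3.26 for IVD, above 0 in each pair. With the replicate number as a block all 3 genes were called, at limma adjusted p = 0.023 for MCCA, 0.0187 for MCCB and 0.0274 for IVD, against 5.34% of probe sets called higher.

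The MCCA call did not survive the loss of most single arrays. It was lost without the arrays numbered 2 or 3 of WT_none, of WT_glucose or of tor_glucose, and without those numbered 1 or 2 of tor_none (limma adjusted p of 0.0562 to 0.103). It was kept without the arrays numbered 1 of WT_none, WT_glucose or tor_glucose and without number 3 of tor_none. MCCB was called without the WT_none array numbered 1 (adjusted p = 0.0309) or the tor_none array numbered 3 (adjusted p = 0.0437). With numbers 2 and 3 alone, all 3 genes were called (5.05 for MCCA, 2.75 for MCCB and 3.15 for IVD).

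Without glucose, the genotypes were compared at the untreated baseline. MCCA was at 10.89 ± 1.47 (SD, n = 3) in tor against 12.03 ± 0.50 in WT, a difference of -1.14 ± 0.77 (SE, limma adjusted p = 0.300). MCCB differed by -0.89 ± 0.48 (limma adjusted p = 0.194) and IVD by -0.48 ± 0.68 (limma adjusted p = 0.639). None was called, where 8.66% of probe sets were called lower and 19.5% higher in tor. One array weighs heavily here: without the tor_none array numbered 1 the differences were -0.30 for MCCA, -0.36 for MCCB and 0.35 for IVD. By pair, tor minus WT was -2.33, -0.46 and -0.62 for MCCA, -1.20, -0.61 and -0.86 for MCCB, and -1.39, 0.02 and -0.07 for IVD. Number 1 gave the largest difference for each gene, and the IVD values of numbers 2 and 3 are near 0.

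With glucose, the genotypes stood apart for each gene. This comparison shares its arrays with the glucose responses above. MCCA was higher in tor by 3.36 ± 0.77 (SE, limma adjusted p = 0.00567), IVD by 2.37 ± 0.68 (limma adjusted p = 0.0169) and MCCB by 1.63 ± 0.48 (limma adjusted p = 0.020), that is 10.3-fold, 5.18-fold and 3.08-fold. All 3 were called higher with no overlap of arrays, against 25.4% of probe sets called higher (16% lower) and 32.8% with no overlap in that direction, shares that make these calls common ones. By rank from the highest, MCCA was 69, IVD 248 and MCCB 835 of 22746. By pair, tor minus WT was 1.06, 3.99 and 5.03 for MCCA, 0.86, 3.07 and 3.19 for IVD, and between 0.84 and 2.54 for MCCB, with number 1 the smallest each time.

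The calls with glucose were firm for MCCA, which passed in every fit that left out 1 array. MCCB lost its call without the WT_glucose array numbered 2 (adjusted p = 0.0544) or 3 (0.0696) or the tor_glucose array numbered 3 (0.0794). IVD lost it without the WT_glucose array numbered 2 (adjusted p = 0.0553) or the tor_glucose array numbered 2 (0.0593) or 3 (0.068). The tor arrays have higher medians, and centring took 0.24 off the genotype difference without glucose and 0.18 off that with it. Relative to that shift, tor minus WT with glucose was 3.18 for MCCA, 1.45 for MCCB and 2.20 for IVD, all called, against 16.9% of probe sets called higher and 23.4% lower. Without glucose it was -1.38, -1.13 and -0.72, none called, against 10.3% and 20.9%.

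On the way from WT_none to WT_glucose, the mean of tor_glucose had covered 37.4% for MCCA, 51.9% for MCCB and 34.6% for IVD. Without glucose, the mean of tor_none already stood at 21.2%, 26.3% and 13.3% in the same order, a baseline difference that was not called. The summed log2 level of the 2 root markers measured, of 8 fixed, was 11.18 to 13.42 in WT_none and 12.56 to 13.48 in WT_glucose, but 10.22 to 10.43 in tor_none and 10.03 to 10.19 in tor_glucose. That of the 2 shoot markers was 26.05 to 26.90, 25.83 to 26.64, 26.70 to 27.02 and 26.84 to 27.07 in the same order. Without glucose the lower root sum in tor rests on EXPA7. The part of these markers in the genotype differences of MCCA, MCCB and IVD was not tested. In whole seedlings, fewer cells of a type and less RNA per cell cannot be told apart.

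**Figure D3:**
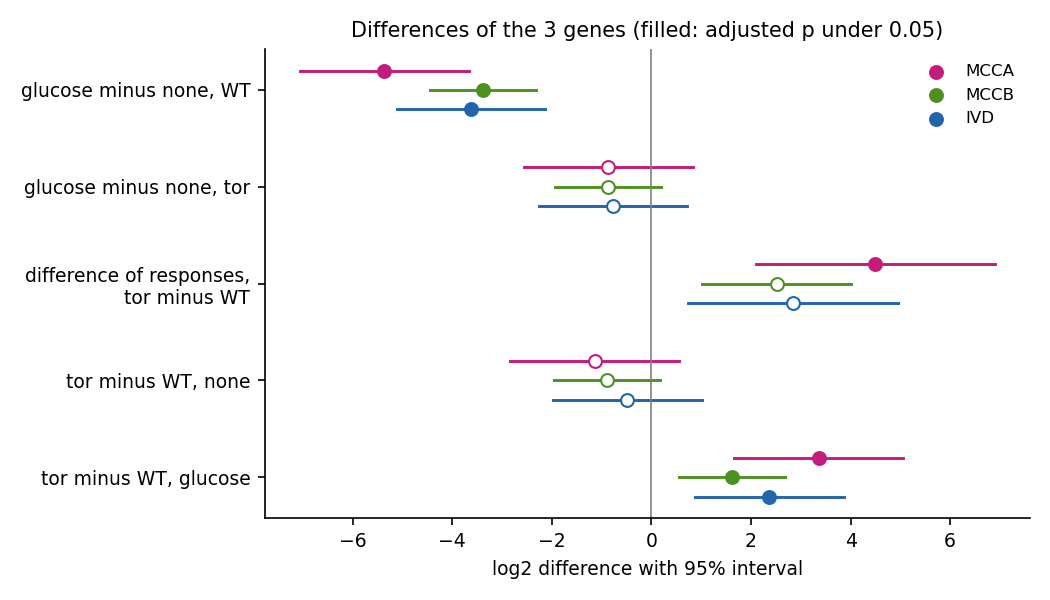
Log2 difference with its 95% interval for MCCA, MCCB and IVD in the 5 comparisons, from the model of all 12 arrays. Filled points passed an adjusted p under 0.05. All 3 genes pass for glucose in WT and for tor against WT with glucose, MCCA alone passes for the difference of responses, and no gene passes for glucose in tor or for the untreated genotypes.

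MCCA and MCCB encode the 2 subunits of 1 enzyme, so their responses were set against each other within each array. The difference between 2 probe sets has no meaning as a level, but its change shows unequal change. MCCA minus MCCB was 0.28, -0.08 and -0.16 in WT_none and -1.02, -2.56 and -2.32 in WT_glucose. The groups do not overlap: in WT the MCCA signal fell by 1.98 ± 0.61 more (SD over 3 pairs, exact permutation p = 0.10, the smallest that 3 against 3 allows, and 0.25 after adjustment over the 15 such comparisons). In tor_none it was -0.85, 0.07 and 0.07, and in tor_glucose -0.80, -0.07 and 0.17. In tor the shift was 0.00 ± 0.13 (SD over 3 pairs, exact permutation p = 1, adjusted p = 1), and without 1 array it ran from -0.31 to 0.28.

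The pair differences of this shift in tor lie wholly above those in WT (difference 1.98, exact permutation p = 0.10, adjusted p = 0.25), a direction found in 3 of 3 pairs. In the authors' deposited table the dChip values of MCCA and MCCB lie further apart in WT (-6.7 against -3.3) and also differ in tor (-0.9 against -0.6). MCCA against IVD behaved alike: the difference went from 1.25, 0.74 and 0.99 in WT_none to 0.21, -1.08 and -1.37 in WT_glucose (shift of -1.74 ± 0.66, SD over 3 pairs, exact permutation p = 0.10, adjusted p = 0.25) and shifted by -0.09 ± 0.29 in tor (exact permutation p = 0.90, adjusted p = 0.964). MCCB against IVD shifted by 0.24 ± 0.44 in WT (exact permutation p = 0.30, adjusted p = 0.45), with overlapping arrays. None of these 15 tests can pass 0.05 with 3 arrays a group, and probe sets can differ in how they scale with RNA.

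**Figure D4:**
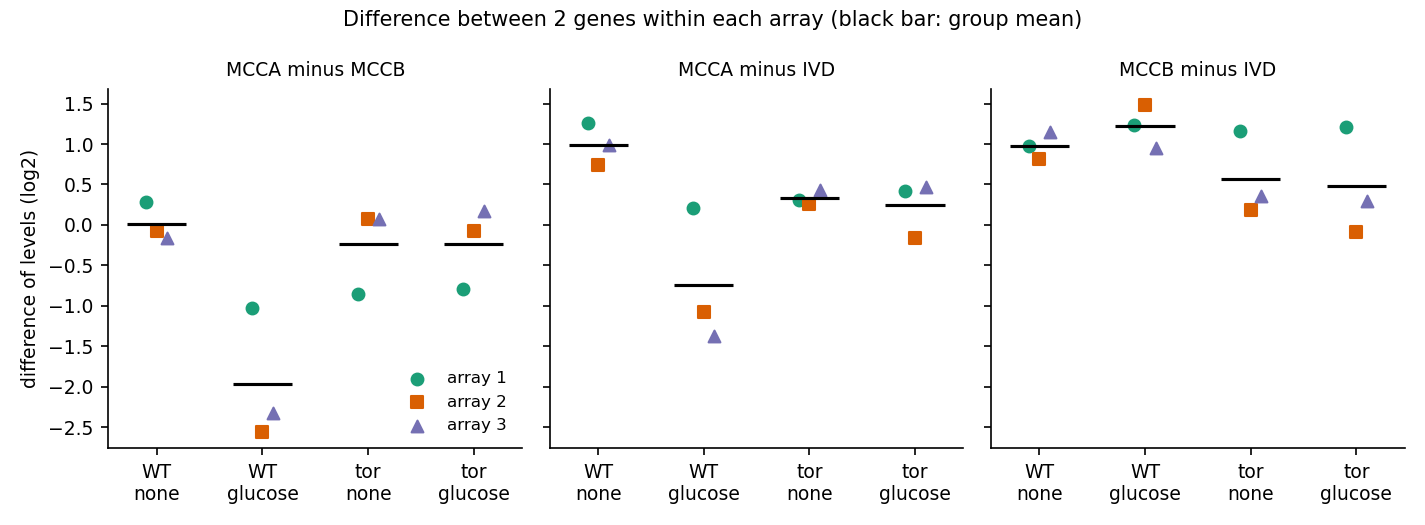
Difference of log2 levels between 2 genes within each array, for the 3 gene pairs and the 4 groups, with black bars at group means. MCCA drops against MCCB and against IVD in WT_glucose, to means of -1.97 and -0.75, and MCCB minus IVD overlaps between treatments in both genotypes.

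Other genes of the pathway were taken from fixed lists, of which only a part carries a gene name on these arrays. The lists too were chosen with earlier results of these data known. Of 20 further listed genes of branched-chain amino acid breakdown and its electron transfer, 10 were measured, and with glucose in WT 6 of them fell, 2 rose and 2 did not pass (median log2 change -0.70, against -0.01 for all probe sets, of which 10.5% were called lower and 13.5% higher). In tor none of the 10 passed (median -0.09, all probe sets 0.01). With glucose, 8 of the 10 were called higher in tor than in WT and 1 was lower (median 1.23, all probe sets 0.08, of which 25.4% were called higher and 16% lower). Of the 10, 3 were already called higher in untreated tor and 0 lower (median 0.20, all probe sets 0.08). The shares over all probe sets there were 19.5% higher and 8.66% lower. These 3, AT5G09300, AT4G20930 and ETFALPHA, are among the 8.

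Electron transfer from IVD and related dehydrogenases moved one way. All 4 genes of the electron transfer list were measured and all 4 fell in WT (median -1.05), against 10.5% of all probe sets, though the ETFALPHA call was lost in 12 of 21 alternative fits. ETFQO, which hands the electrons on to ubiquinone, lay at 10.15, 10.32 and 10.82 in WT_none and at 7.92, 7.52 and 6.91 in WT_glucose, a change of -2.98 ± 0.38 (SE, limma adjusted p = 0.000411). In tor ETFQO lay at 9.25, 10.42 and 10.62 without and at 9.09, 9.62 and 9.91 with glucose, a change of -0.55 ± 0.38 (limma adjusted p = 1.00). As for MCCA, the array numbered 1 is the lowest of both tor groups. The difference of responses was called for ETFQO (2.43 ± 0.54, limma adjusted p = 0.0287), a call lost without the arrays numbered 2 or 3 of WT_none, WT_glucose or tor_glucose (adjusted p up to 0.0781).

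The remaining members of that list moved less. D2HGDH, D-2-hydroxyglutarate dehydrogenase, which also feeds electrons to this flavoprotein, fell in WT by 1.14 ± 0.22 (SE, limma adjusted p = 0.0038), and the flavoprotein subunit ETFBETA fell by 0.96 ± 0.19 (limma adjusted p = 0.00393). Its partner ETFALPHA fell by 0.49 ± 0.16 (limma adjusted p = 0.0495), and 9 of its 12 lost calls came without 1 array, every array but those numbered 1 and 2 of WT_glucose and number 1 of tor_none. Without 1 array its change ran from -0.60 to -0.29, the latter without the WT_glucose array numbered 3 (limma adjusted p = 0.148). Unlike the 3 leucine genes, ETFALPHA was already higher in untreated tor than in WT (9.30 ± 0.17 against 8.17 ± 0.08, SD, n = 3, difference of 1.13 ± 0.16, SE, limma adjusted p = 0.000684).

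The steps next to these genes were mixed. Of the 2 other loci on the list of leucine's own steps, both known here by identifier only, AT2G26800 fell in WT by 0.92 ± 0.22 (SE, limma adjusted p = 0.0108) and AT4G16800 changed by 0.14 ± 0.20 (limma adjusted p = 0.711), the latter named after its value was seen. Of the 9 genes on the list of steps shared by leucine, valine and isoleucine, 1 was measured, AT5G09300, and it rose by 0.96 ± 0.20 (limma adjusted p = 0.00635). Of 5 genes on the valine and isoleucine list 3 were measured, of which ALDH6B2, an aldehyde dehydrogenase of valine breakdown, fell by 2.38 ± 0.34 (limma adjusted p = 0.000679) and AT4G31810 rose by 1.47 ± 0.15 (limma adjusted p = 0.000134). Those 2 also differed in response between genotypes, ALDH6B2 by 1.90 ± 0.47 (limma adjusted p = 0.0448) and AT4G31810 by -1.25 ± 0.21 (limma adjusted p = 0.0105). The ALDH6B2 call was lost without the arrays numbered 2 or 3 of WT_none, WT_glucose or tor_glucose and without number 2 of tor_none (adjusted p up to 0.110), and with arrays quantile normalized again (0.0726).

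On the leucine synthesis list 2 of 13 genes were measured and both rose in WT, where 13.5% of all probe sets were called higher. AT3G23940 rose by 1.32 ± 0.24 (SE, limma adjusted p = 0.00286) and AT3G58610 by 0.56 ± 0.17 (limma adjusted p = 0.0337), the latter a call lost in 6 of 21 alternative fits, with the arrays centred on their medians and without any WT array but number 1 of WT_none (adjusted p up to 0.115). In tor they changed by 0.14 ± 0.24 and 0.05 ± 0.17, neither called. Among 15 genes for the breakdown of other amino acids 4 were measured, and 2 fell in WT: MGL, methionine gamma-lyase, by 2.95 ± 0.60 (limma adjusted p = 0.00484) and AT4G33150, the lysine-degrading LKR/SDH, by 2.45 ± 0.47 (limma adjusted p = 0.00344). As for MCCA, the untreated tor array numbered 1 was the lowest for MGL, at 7.31 against 9.10 and 9.54. The lists of other biotin carboxylases and biotin supply (10 genes) and of dark-induced genes (12) had 0 members matched by name to a probe set and were not analysed here.

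**Figure D5:**
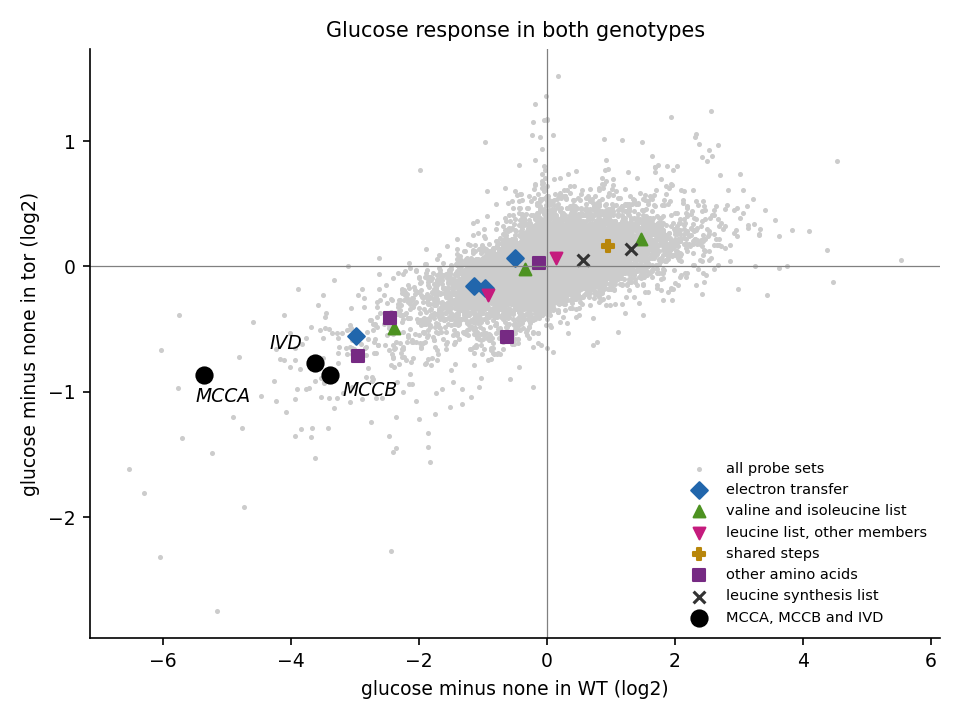
Log2 change with glucose in WT (x axis) and in tor (y axis) for all 22746 probe sets (grey), MCCA, MCCB and IVD (black) and the measured members of the fixed lists. The 3 genes lie at the lower left, at -5.36 to -3.38 in WT and -0.87 to -0.77 in tor, with ETFQO, ALDH6B2, MGL and AT4G33150 between them and the bulk.

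Named probe sets were also ranked by likeness to the 3 genes, as Pearson's r over the 12 arrays with the mean of MCCA, MCCB and IVD, each first scaled to mean 0 and SD 1. These values are a description, since all probe sets share the 12 arrays and the 4 groups. The 6 most alike were AT1G21680 (r = 0.996), ALDH6B2 (0.994), AT2G40420 (0.992), AT1G32460 (0.986), SDP1 (0.986) and AT1G18270 (0.985), and 6 probe sets without a gene name were at least as alike as the last. SDP1 is the lipase that opens the breakdown of seed oil. It fell in WT from 9.30 to 7.38 and lay at 8.88 and 8.42 in tor without and with glucose. With the group means removed, r for these 6 was 0.922 to 0.984, a value that their choice over the same 12 arrays favours. Between pairs of the 3 genes themselves it was 0.896 to 0.901. The nearest to MCCA alone were AT2G40420 and AT1G21680, to MCCB alone AT5G63190 and SDP1, and to IVD alone AT5G27920 and AT1G18270 (r of 0.985 to 0.993). All 8 genes named here fell in WT (limma), with log2 changes from -3.35 for AT2G40420 to -1.92 for SDP1. Their choice by likeness over the same arrays favours such a fall, and 10.5% of all probe sets were called lower in WT. None was called in tor, where the share over all probe sets was 0%.

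The 3 genes lie on different chromosomes by their locus tags. Of the 12 protein-coding genes within 2 places of them, looked up after their own values were seen, 4 have a named probe set. Beside MCCA, NET1D changed in WT by -0.54 ± 0.32 (SE, limma adjusted p = 0.277) and AT1G03100 rose by 0.38 ± 0.12 (limma adjusted p = 0.0388). Beside IVD, AT3G45310 changed by -0.28 ± 0.28 (limma adjusted p = 0.560) and AT3G45320 by -0.06 ± 0.15 (limma adjusted p = 0.844). No measured neighbour was called lower in WT. With glucose, NET1D was called higher in tor than in WT (1.26 ± 0.32, SE, limma adjusted p = 0.00976), as was MCCA, against 25.4% of all probe sets. The other measured neighbours did not pass there.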

How the data were processed

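RNA from 12 seedling samples was hybridised by the authors to 1-colour expression arrays. Per the submitters' processing notes, the authors made the values with RMA, and the deposited levels are on the log2 scale. The sources used here do not say if all arrays were normalized as one set. The authors also deposited log2 fold changes (dChip and RMA) and p-values per genotype, whose test is not stated in the file headers. Their dChip changes are used as an alternative.

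Of 22810 probe sets, 64 controls were left out. One level was missing in the remaining table and was left out of its fit. The model was fitted with limma 3.58.1 (R 4.3.3, lmFit and eBayes, two-sided p), and tested on simulated data. Gene names come from the platform annotation (13513 probe sets with 1 gene, 503 with several, 8730 with none). The lists name up to 4 members called in WT, or the one with the smallest p. Likeness names 6 genes for the 3 members and 2 for each. Members and lists were chosen with earlier results of these data known. Same-numbered arrays deviate together from their group means (r of 0.199 to 0.863 over 18 pairs). The labels do not state a pairing, and arrays of unlike number were not compared. For MCCA, MCCB and IVD the array numbered 1 lay below its group mean in WT_none (-0.48, -0.75 and -0.74). In WT_glucose it lay above it (1.35, 0.40 and 0.39). The number of arrays limits precision. Exact permutation tests were two-sided. No sequences were used here.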

Additional observations from a re-analysis of the deposited data

Results flagged for a closer look

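Among the 3 leucine genes and the members of the lists, the glucose response of 4 genes differed between the genotypes by the test of the difference itself, tor minus WT: MCCA by 4.50, ETFQO by 2.43, ALDH6B2 by 1.90 and AT4G31810 by -1.25 (log2, limma). For the first 3 the drop was smaller in tor, and for AT4G31810 the rise was smaller. Over all probe sets 1.93% had a higher and 3.44% a lower response in tor by this test. AT1G21680, AT2G40420, AT1G32460 and AT5G63190, named for likeness, passed it too. Their choice by likeness over the same arrays favours such a difference, so these calls add no separate evidence. Under the replicate block 3043 of 22746 probe sets passed. Of these, 1215 (5.34% of all) were called higher and the rest, a larger number, lower. There MCCB, IVD, ETFBETA and MGL passed as well with a higher response in tor. AT5G09300, AT3G23940 and AT3G58610 passed with a lower one.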

How the results depend on the processing

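The calls of MCCA, MCCB and IVD for glucose in WT held in all 21 alternative fits. None was called for glucose in tor or between untreated genotypes in any fit used for that comparison. For untreated IVD the difference turned to 0.35 without tor_none array 1, and was -0.94 to 0.35 over all fits without 1 array. The difference of responses was the least stable result: with arrays quantile normalized again MCCA lost its call (4.26, adjusted p = 0.0597), and with a filter on dim probe sets MCCB gained one (2.51, adjusted p = 0.0417). Under the replicate block, MCCB (2.51) and IVD (2.85) were called. The block within each genotype called both too (2.51 and 2.85), as did numbers 2 and 3 alone (2.75 and 3.15), both chosen after seeing the data. The block changed no other call of these 3 genes. Leaving out 1 array gave 3.66 to 5.17 for MCCA, 1.98 to 2.89 for MCCB and 2.03 to 3.41 for IVD, and for tor against WT with glucose 1.35 to 1.83 for MCCB and 2.00 to 2.93 for IVD. Over all probe sets, 1220 responses differed between genotypes, 3043 with the block, 4555 with the block within genotype, 2936 with numbers 2 and 3 alone, and 477 to 1828 without 1 array. In tor 0 were called, 2 with numbers 2 and 3 alone and 20 in the tor arrays alone with the block. In WT 5454 were called, and 8903 with the block within genotype. MCCA minus MCCB shifted in WT by -3.40 in the dChip values, against -1.98. The cause of these shifts was not tested. The block within genotype was not used for the comparisons between genotypes, since it leaves only the arrays numbered 1 to compare genotypes. Detection was not measured; the lowest MCCA levels, in WT_glucose, lay below their arrays' medians, and dChip gave a larger drop there.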
